A study of Mus musculus with 6 samples.

Results

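The genes described here are Ano1, Kit, Etv1, Pdgfra, P2ry1, Kcnn3 and Prkg1, which mark or serve the interstitial cells that pace the gut wall and relay signals from its nerves. They are the 7 rows of the deposited table whose symbol is one of these names, out of 23108 rows with a gene name, and all 7 averaged at least 0.5 FPKM (fragments scaled by transcript length and by the mapped fragments of the library), the minimum for testing. The study sequenced messenger RNA of the distal colon from 3 male mice lacking TNFR2, the receptor for tumor necrosis factor encoded by Tnfrsf1b, and from 3 male wildtype mice (WT). All 6 mice were 8 weeks old and of the strain C57Bl/6, and no treatment is named for either group. The knockout (KO) is labelled TNFR2-/- and described no further: the deleted part of the gene, the cells in which it was lost and whether the WT mice were littermates are details that the labels do not state. The members were chosen by their role and by measured FPKM: Ano1 was selected on its difference between KO and WT in these same libraries, and the other 6 genes were added with those results known, so differences of the 7 genes between the genotypes are descriptions and not tests.

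Interstitial cells of Cajal are the pacemaker cells of the gut. They depend on the receptor tyrosine kinase Kit, and waves of calcium inside them open Ano1, a calcium-activated chloride channel (also called Tmem16a), which depolarises the cell and the smooth muscle coupled to it. Etv1, a transcription factor of the ETS family, maintains their identity. A neighbouring class of interstitial cells carries Pdgfra instead of Kit and senses purines released by enteric nerves through the receptor P2ry1, which opens the small-conductance potassium channel encoded by Kcnn3 and relaxes the muscle. Prkg1 encodes the cGMP-dependent protein kinase through which nitric oxide relaxes both smooth muscle and interstitial cells. Ano1 is also known from secretory epithelia, Kit from mast cells and melanocytes, and Pdgfra from fibroblasts under the epithelium, so none of these genes is unique to interstitial cells.

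The stretches directly upstream of the RefSeq starts of Ano1 and Pdgfra are shown because these were the members whose KO and WT libraries did not overlap, in opposite directions. Each is 250 bases long, 5′ to 3′ on the strand of its gene, from RefSeq on GRCm38.p6, the assembly of mm10. The Ano1 stretch is chr7:144738574-144738823 on the minus strand; 19 of its bases lie in an annotated exon of GENCODE M21, and the whole stretch lies inside the span that the deposited table gives for Ano1. Capitals mark its match to the NF-kB consensus, which lies 43 to 34 bases before the start and reads as a match on both strands. The Pdgfra stretch is chr5:75152001-75152250 on the plus strand and holds no annotated exon. Capitals mark its ETS site, found on the minus strand, 9 to 3 bases before the start.
Ano1: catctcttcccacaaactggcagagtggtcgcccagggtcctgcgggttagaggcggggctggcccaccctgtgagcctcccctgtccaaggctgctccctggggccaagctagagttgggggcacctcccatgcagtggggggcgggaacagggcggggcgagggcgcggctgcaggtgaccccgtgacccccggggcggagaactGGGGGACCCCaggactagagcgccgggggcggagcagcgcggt
Pdgfra: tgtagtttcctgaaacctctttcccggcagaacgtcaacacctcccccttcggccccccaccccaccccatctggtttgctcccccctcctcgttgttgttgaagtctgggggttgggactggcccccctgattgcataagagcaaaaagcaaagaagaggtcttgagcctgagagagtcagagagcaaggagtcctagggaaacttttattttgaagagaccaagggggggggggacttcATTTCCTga

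5 motifs were searched on both strands of the upstream windows of all 7 genes, which have 10 windows in the RefSeq table, and of all 32851 windows of the same length. The NF-kB consensus, the element bound by the factor that TNF receptors activate, was found in the window of Ano1 and in none of the others, and 5.93% of all windows hold it. An ETS site, searched in the form AGGAAGT, with AGGAAAT as a variant, and in the form CGGAAGT, with CGGAAAT as a variant, was found in the window of Pdgfra alone, against 18.7% of all windows. The GC box GGGCGG was present in 6 of the 10 windows, against 32.7% of all windows. These windows belong to 4 of the genes (Ano1, Kit, P2ry1 and Prkg1), and those of Kit overlap one another. TATAAA was present in a window of Etv1, against 12.4% of all windows. The CArG box, the element of smooth muscle genes, was in none of the members' windows and in 1.47% of all windows. In the Ano1 stretch GGGCGG occurs 4 times, none of them overlapping the NF-kB match. Of its bases 72% are G or C, against 54.4% in the Pdgfra stretch and a median of 52.4% over all windows. The shares over all windows given above were not matched for G and C content. These matches describe the sequence only; binding was not measured.

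Reads were paired, 50 bases long and about 50M a sample by the stated average. Relative depth, read from the steps of low FPKM values with WT library 1 as 1, was 0.874 to 1.10 in the KO libraries and 0.736 to 1.02 in the WT libraries, and no counts are given, so no counting interval was computed. Tnfrsf1b, which checks the labels, measured 1.17, 1.12 and 0.924 FPKM in the KO libraries, against 7.49, 8.20 and 8.17 FPKM in the WT libraries. In limma over 14564 genes, 42 passed a Benjamini-Hochberg threshold of 0.05, which is 0.288% of those tested (0.185% higher and 0.103% lower in KO). The KO libraries all lay above the WT libraries for 9.3% of the tested genes and all below for 12.5%, so that the genotypes did not overlap for 21.8%. Marker genes of the colon were present in every library, among them the intestinal homeobox gene Cdx2 (2.91 to 6.94 FPKM) and the smooth muscle myosin gene Myh11 (321 to 544 FPKM). Skin and skeletal muscle genes were present too, at levels that differed between libraries by far more than those of the colon wall, with KO library 1 lowest. The 6 skin keratinocyte markers summed to 40.9, 336 and 620 FPKM in the KO libraries, against 649, 256 and 724 FPKM in the WT libraries. The 6 skeletal muscle markers summed to 113, 1424 and 1026 FPKM in the KO libraries, against 6376, 1977 and 2288 FPKM in the WT libraries.

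Of the 7 genes, Ano1 and Kit had higher means and the other 5 lower means in KO, and 1, Ano1, passed the adjusted threshold over all genes, where 0.288% of all tested genes did. For 2 of the 7, Ano1 and Pdgfra, the genotypes did not overlap, where 21.8% of all tested genes were so separated. The contrast chose the members, so nothing is read from either count. Ano1 was by far the most abundant, followed in order of mean FPKM by Pdgfra, P2ry1, Kit, Prkg1, Etv1 and Kcnn3. The ranges over libraries of Ano1 and Pdgfra overlapped no other member, whereas the lowest P2ry1 value (7.43 FPKM, KO library 1) lay close to the highest Kit value (7.18 FPKM, in the same library), and Prkg1, Etv1 and Kcnn3 overlapped one another between 2.28 and 3.19 FPKM.

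**Figure D1:**
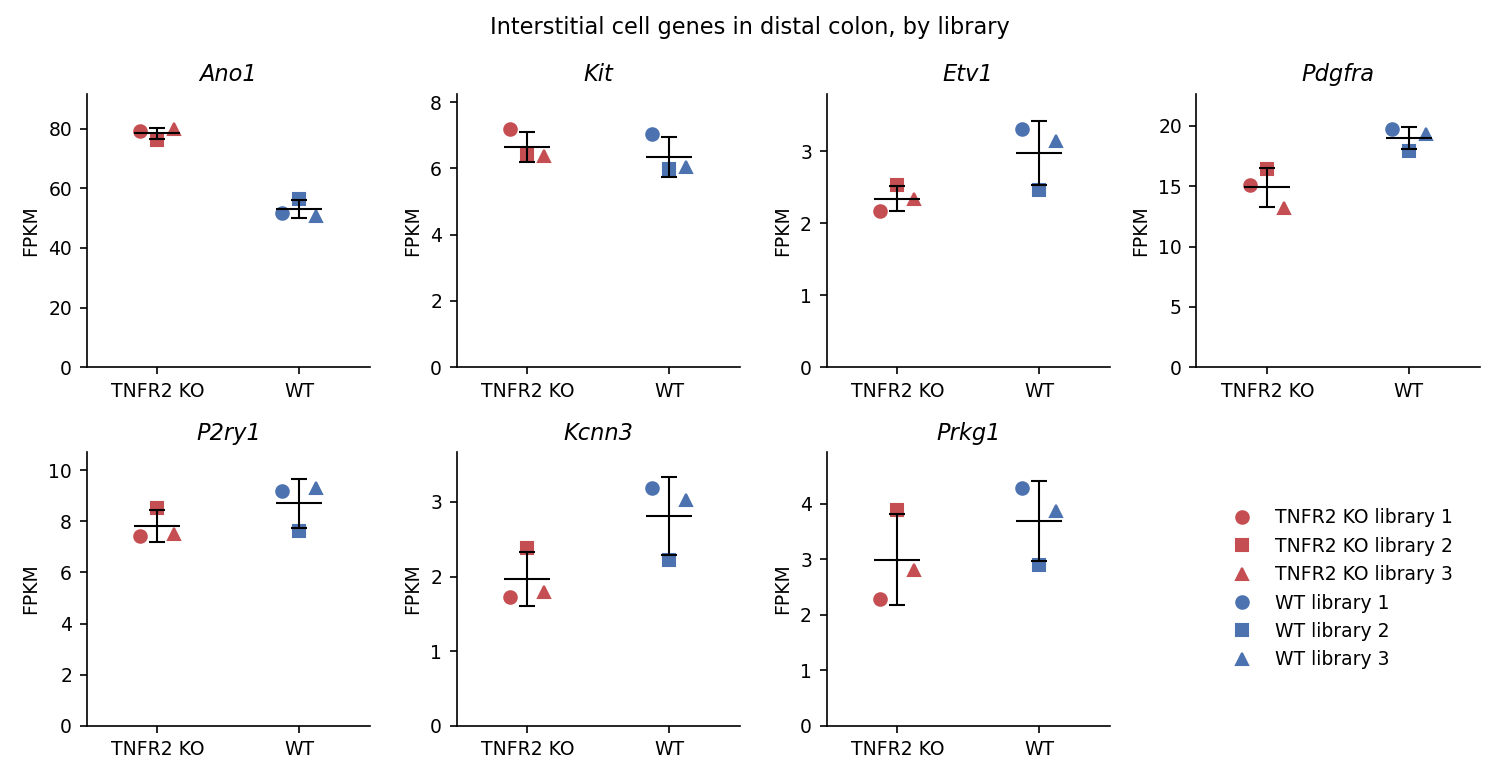
FPKM of the 7 interstitial cell genes (vertical axes, from 0) in the 3 TNFR2 KO and 3 WT libraries; points are libraries, horizontal bars the mean and whiskers the SD (n = 3 each). Ano1 lies above 76 FPKM in every KO library and below 57 FPKM in every WT library, Pdgfra lies lower in every KO library, and the other 5 genes overlap.

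In mm10, Ano1 spans 144588535 to 144752126 of chromosome 7. It measured 79.3, 76.3 and 79.8 FPKM in the KO libraries, against 51.7, 56.4 and 50.8 FPKM in the WT libraries. The genotypes did not overlap, and the lowest KO library stood well above the highest WT library. The mean was 78.5 ± 1.90 FPKM in KO and 53.0 ± 3.03 FPKM in WT (SD, n = 3 each), a ratio of 1.48 and a log2(FPKM + 1) difference of 0.56 ± 0.07 (SE, limma). The value that picked it was its adjusted p of 0.0361 (limma, Benjamini-Hochberg, over all tested genes). That p is the selection and no further support, and it stayed under the threshold in 6 of 18 alternative fits, although the difference was positive in all 18. No other gene of the GENCODE M21 annotation shares exon bases with Ano1.

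Ano1 was also the most abundant of the 10 anoctamins, a family of chloride channels and lipid scramblases. It made up 51.1% to 52.4% of the summed anoctamin FPKM in the KO libraries and 40.0% to 42.1% in the WT libraries. Next came Ano10, at 30.2 ± 0.888 FPKM in KO and 31.8 ± 1.30 FPKM in WT, and Ano9, at 20.2 ± 2.53 FPKM in KO and 18.6 ± 2.69 FPKM in WT (SD, n = 3 each). Ano2, the closest relative of Ano1 and itself a calcium-activated chloride channel, was at 0.297, 0.185 and 0.222 FPKM in the KO libraries, against 0.125, 0.188 and 0.135 FPKM in the WT libraries, too low to be tested. Of the 6 tested relatives none was called in limma (lowest Benjamini-Hochberg adjusted p = 0.242), where 0.288% of all tested genes were. Of these relatives 2 had higher and 4 lower means in KO, with a median log2 difference of -0.07, against -0.03 over all tested genes.

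**Figure D2:**
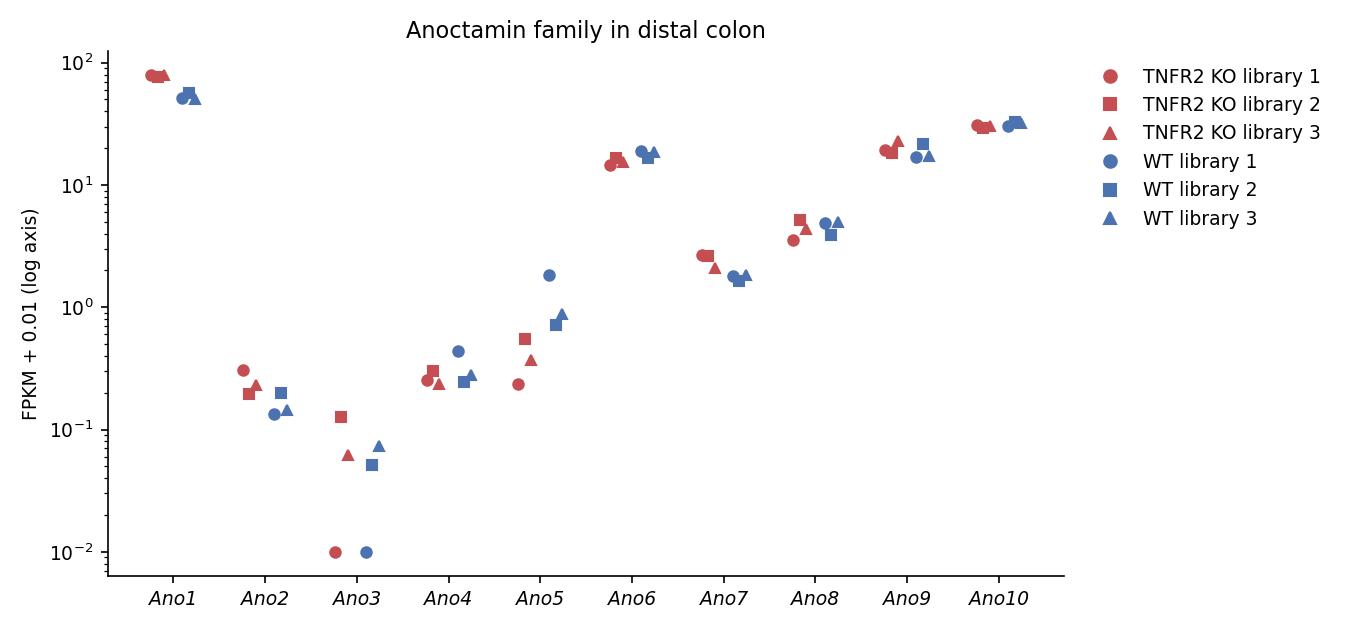
FPKM of the 10 anoctamin genes (vertical log axis, 0.01 added so that values of 0 can be drawn; 3 TNFR2 KO libraries left and 3 WT libraries right of each position). Ano1 is the highest in every library and the KO and WT points of Ano10, Ano9 and Ano8 overlap.

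The other pacemaker cell genes did not share the difference of Ano1. Kit (chromosome 5, 75574987 to 75656721), the receptor that marks these cells, measured 7.18, 6.39 and 6.38 FPKM in the KO libraries, against 7.04, 5.97 and 6.04 FPKM in the WT libraries. The genotypes overlapped, library 1 being the highest in both, and the log2 difference was 0.06 ± 0.09 (SE, limma). Ano1 stood at 11.8 ± 0.745 times the FPKM of Kit in KO and 8.40 ± 1.06 times in WT (SD, n = 3 each), and the lowest KO ratio lay above the highest WT ratio, 9.46. This ratio carries the Ano1 values that selected it, so its separation is no further support. Etv1 (chromosome 12, 38780258 to 38868279) measured 2.17, 2.52 and 2.33 FPKM in the KO libraries, against 3.30, 2.46 and 3.13 FPKM in the WT libraries. WT library 2 lay inside the KO range and the other WT libraries above it, and the log2 difference was -0.24 ± 0.11 (SE, limma).

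The genes of the Pdgfra-positive interstitial cells had lower means in KO. Pdgfra (chromosome 5, 75152291 to 75198214), the receptor that names them, measured 15.1, 16.5 and 13.2 FPKM in the KO libraries, against 19.7, 17.9 and 19.3 FPKM in the WT libraries. Every KO library lay below every WT library, and the KO mean was 78.6% of WT (14.9 ± 1.62 against 19.0 ± 0.927 FPKM, SD, n = 3 each), a log2 difference of -0.33 ± 0.09 (SE, limma). Among all tested genes 12.5% were separated in this direction. P2ry1 (chromosome 3, 61002588 to 61008982), the purine receptor, measured 7.43, 8.54 and 7.49 FPKM in the KO libraries, against 9.19, 7.60 and 9.32 FPKM in the WT libraries. The genotypes overlapped through KO library 2 and WT library 2, and the log2 difference was -0.14 ± 0.10 (SE, limma). Antisense transcripts are annotated over exons of Pdgfra and P2ry1, and no label or header says whether the libraries kept the strand, so reads of the gene and of its antisense partner cannot be told apart.

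Kcnn3 (chromosome 3, 89520164 to 89675166), the potassium channel opened after P2ry1, measured 1.73, 2.38 and 1.79 FPKM in the KO libraries, against 3.19, 2.22 and 3.02 FPKM in the WT libraries. KO library 2 lay above WT library 2, and the other KO libraries lay below all WT libraries. The KO mean was 70.0% of WT, the lowest share of the 7 genes, with a log2 difference of -0.36 ± 0.14 (SE, limma). Prkg1 (chromosome 19, 30564487 to 31765033), the cGMP-dependent kinase, measured 2.28, 3.89 and 2.80 FPKM in the KO libraries, against 4.29, 2.89 and 3.87 FPKM in the WT libraries. Its libraries spread 1.88-fold, with KO library 2 inside the WT range and WT libraries 2 and 3 inside the KO range, and the log2 difference was -0.24 ± 0.18 (SE, limma). Single libraries moved it by over 1.5 times: it was -0.11 without KO library 1, -0.39 without KO library 2, -0.14 without WT library 1 and -0.37 without WT library 2.

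Within each genotype several of these genes had the same library as their lowest. WT library 2 was the lowest WT library for 6 of the 7 genes and the highest for Ano1 (Ano1 was lowest in WT library 3). KO library 1 was the lowest KO library for Etv1, P2ry1, Kcnn3 and Prkg1, and KO library 2 the highest for these and for Pdgfra. The root mean square difference between centred log2(FPKM + 1) profiles over the 6 libraries measures this likeness: it was 0.06 between Etv1 and P2ry1, 0.09 between Etv1 and Kcnn3 and 0.10 between Kcnn3 and Prkg1, whereas Ano1 lay 0.27 from Kit and 0.38 to 0.50 from the others. The 6 libraries are shared by all genes, so these distances also carry whatever differs between the libraries as a whole.

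Smooth muscle content had the same lowest libraries, KO library 1 and WT library 2. So did the summed enteric neuron, mast cell, melanocyte, skin keratinocyte and skeletal muscle markers, so this is not particular to smooth muscle. The fibroblast and endothelial sums were lowest in KO library 3 and WT library 2, and the epithelial sum in KO library 2 and WT library 1. The 10 smooth muscle markers, among them the contractile genes Tagln, Acta2, Actg2 and Myh11, summed to 5398, 7464 and 7296 FPKM in the KO libraries, against 9341, 5841 and 8312 FPKM in the WT libraries. The genotypes overlapped: the mean was 6719 ± 1147 FPKM in KO and 7831 ± 1799 FPKM in WT (SD, n = 3 each; exact permutation test over libraries, two-sided, p = 0.4, where 0.1 is the smallest p that 3 against 3 allow). None of the 10 markers was called in limma (Benjamini-Hochberg, over all genes), where 0.288% of all tested genes were. All 10 had lower means in KO, with a median log2 difference of -0.22. Tagln measured 2054 ± 352 FPKM in KO and 2416 ± 553 FPKM in WT, and Actg2 1667 ± 310 FPKM in KO and 1859 ± 417 FPKM in WT (SD, n = 3 each). In bulk tissue, fewer cells of a type and less RNA per cell cannot be told apart.

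**Figure D3:**
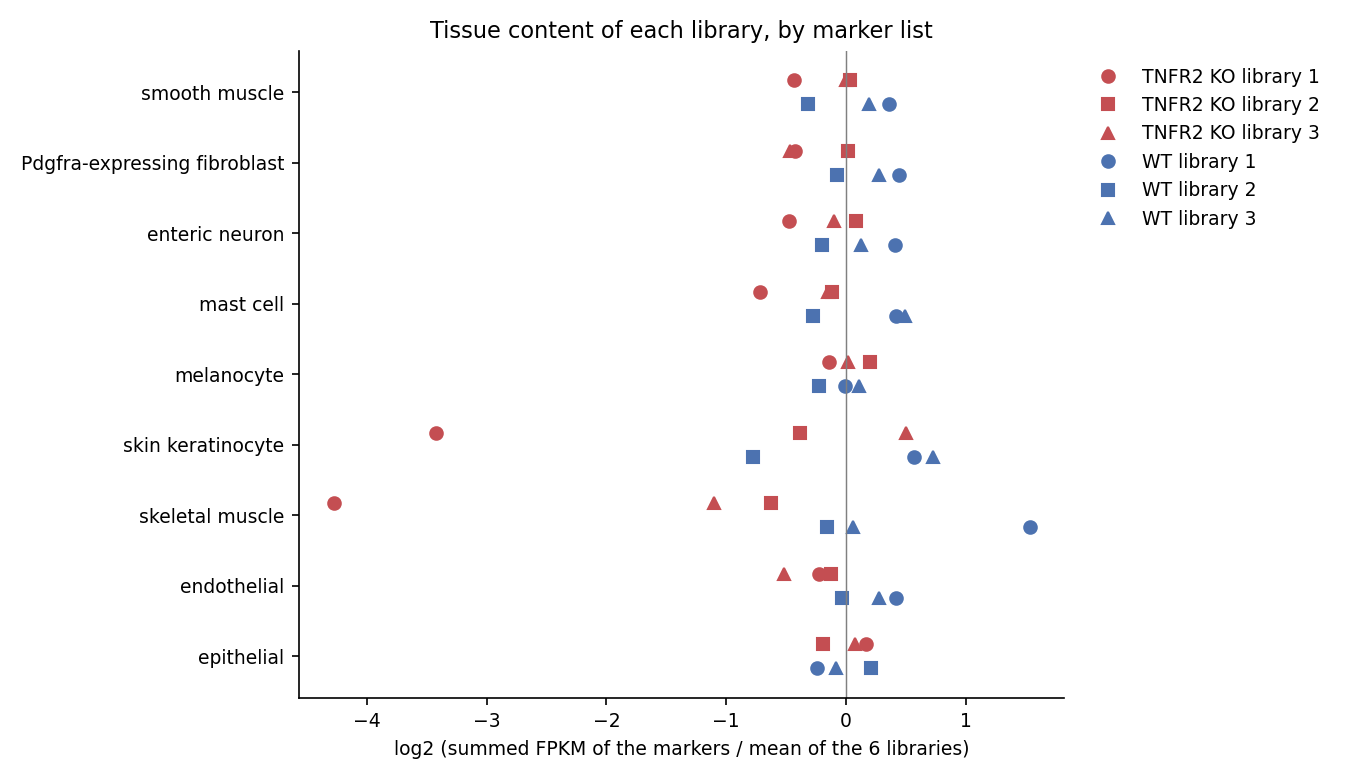
Summed FPKM of 9 marker lists in each library, as the log2 ratio to the mean of the 6 libraries (horizontal axis), with TNFR2 KO libraries drawn above WT libraries. KO library 1 and WT library 2 are the lowest of their genotype for smooth muscle and neurons, and KO library 1 is far below all others for skin and skeletal muscle.

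Divided by smooth muscle content, the differences of Ano1 and Kit were larger and those of the other 5 smaller. These directions follow from the divisor: the mean smooth muscle sum in KO was 85.8% of WT, so dividing by it favours KO. On the log2 scale, taking values relative to the smooth muscle markers moves the difference of every gene by the same amount. The median over all tested genes went from -0.03 to 0.18. The directions are therefore no result about single genes. Per 1000 FPKM of summed smooth muscle markers, Ano1 stood at 14.7, 10.2 and 10.9 FPKM in the KO libraries, against 5.53, 9.66 and 6.11 FPKM in the WT libraries. The genotypes still did not overlap, but WT library 2 came close to KO library 2. With log2 values taken relative to the smooth muscle markers, the call of Ano1 was lost. Its limma, Benjamini-Hochberg adjusted p was 0.697, against 0.0361 for FPKM alone. With the smooth muscle mean as a covariate the call was kept, at a log2 difference of 0.52 (adjusted p = 0.0287, limma). Each of these p-values rests on the values that selected Ano1 and is no further support. Per unit of smooth muscle the KO mean of Ano1 was 168% of WT, against 148% for FPKM alone. The spread of Ano1 over the 6 libraries (coefficient of variation) was 35.4%, against 21.5% for FPKM alone. For Kit the KO mean was 122% of WT per unit of smooth muscle and 105% for FPKM alone, and its spread was 24.1% against 7.77%.

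Over the 6 libraries of both genotypes together, Etv1, Prkg1 and Kcnn3 varied less after the division. Their coefficients of variation were 10.6%, 10.8% and 14.4% per unit of smooth muscle, against 17.3%, 23.6% and 25.6% for FPKM alone. Such coefficients, those of Ano1 and Kit included, take in the gap between the genotypes, which the division changed. Within each genotype Prkg1 and Kcnn3 also spread less relative to their means, as did Etv1 in WT. Etv1 in KO spread more, at 0.353 ± 0.0432 FPKM per 1000, against 2.34 ± 0.178 FPKM before the division (SD, n = 3). The KO means became 91.9% of WT for Etv1, 93.6% for Prkg1 and 81.5% for Kcnn3, against 78.9%, 81.2% and 70.0% for FPKM alone. Kcnn3 then stood at 0.320, 0.319 and 0.245 FPKM per 1000 in the KO libraries, against 0.342, 0.379 and 0.364 FPKM per 1000 in the WT libraries, so that every KO library lay below every WT library. P2ry1 moved to 104% of WT and Pdgfra to 90.7%, and for both the genotypes overlapped. Over the 6 libraries both varied more after the division, with coefficients of variation of 19.4% for Pdgfra and 13.2% for P2ry1, against 14.9% and 10.5% for FPKM alone. With the smooth muscle mean as a covariate the log2 differences were -0.16 for Etv1, -0.07 for Prkg1 and -0.24 for Kcnn3. With the skin keratinocyte mean instead they were close to these, at -0.17, -0.08 and -0.27. The KO means rose relative to WT after the division in the direction that the divisor sets. How much of each difference smooth muscle content accounts for was not tested.

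**Figure D4:**
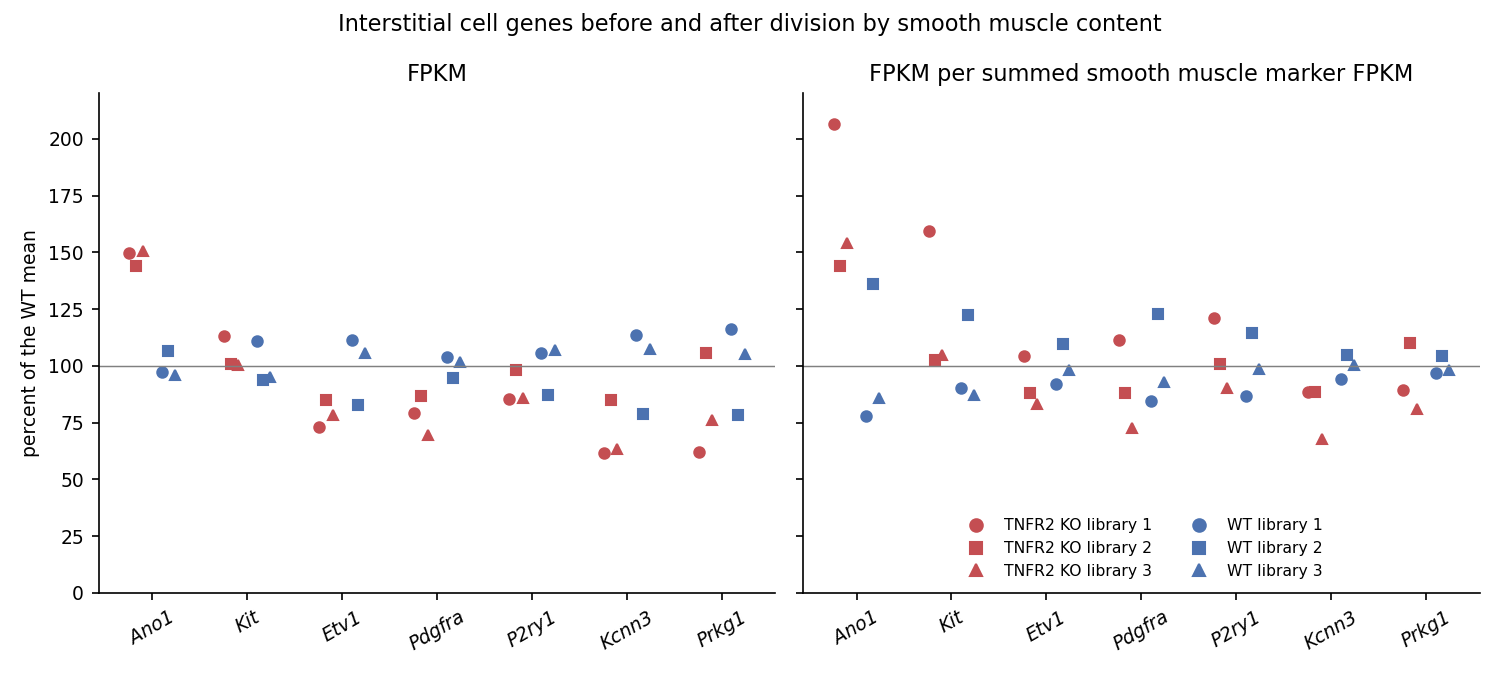
Each library's value of the 7 genes as a percent of the WT mean (vertical axis from 0), for FPKM (left) and for FPKM divided by the summed FPKM of the 10 smooth muscle markers (right), with 3 TNFR2 KO libraries left and 3 WT libraries right of each gene. After division the KO libraries of Ano1 remain above all WT libraries, those of Kcnn3 lie below all WT libraries, and the rest overlap.

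The libraries with the least smooth muscle, KO library 1 and WT library 2, allow a view of single libraries at near equal smooth muscle content (5398 and 5841 FPKM). Their epithelial markers were also close, at 1474 and 1516 FPKM. Other content was not matched: skeletal muscle markers summed to 113 FPKM in KO library 1 and 1977 FPKM in WT library 2. Skin keratinocyte markers summed to 40.9 and 256 FPKM, and markers of Pdgfra-expressing fibroblasts to 409 and 523 FPKM. Ano1 was 79.3 FPKM in KO library 1 and 56.4 FPKM in WT library 2, and Kit was 7.18 FPKM in KO library 1 and 5.97 FPKM in WT library 2. KO library 1 stood at 97.8% of WT library 2 for P2ry1, 88.0% for Etv1, 83.9% for Pdgfra, 79.0% for Prkg1 and 78.0% for Kcnn3. This pair was chosen after its values were seen and has no replicate.

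Other cell types that carry these genes were followed by their own markers. Mast cell markers, 8 genes, were low and summed to 5.12, 7.76 and 7.60 FPKM in the KO libraries, against 11.2, 6.94 and 11.9 FPKM in the WT libraries; the highest was the chymase gene Cma1, at 3.12 ± 0.407 FPKM in KO and 4.09 ± 0.464 FPKM in WT (SD, n = 3 each), followed by the protease gene Mcpt4. The 6 melanocyte markers summed to 1.52 to 1.91 FPKM in KO and 1.42 to 1.80 FPKM in WT, and the melanocyte gene Mlana was listed at 0 in every library; Pmel and Tyr were the highest. The KO sum of mast cell markers stood at 68.2% of WT while Kit stood at 105%. The 10 markers of Pdgfra-expressing fibroblasts summed to 409, 556 and 398 FPKM in the KO libraries, against 745, 523 and 665 FPKM in the WT libraries, at 70.5% of WT beside 78.6% for Pdgfra itself. Their highest members were the proteoglycans Dcn, at 304 ± 66.7 FPKM in KO and 445 ± 86.3 FPKM in WT, and Lum, at 53.6 ± 12.3 FPKM in KO and 78.4 ± 15.7 FPKM in WT (SD, n = 3 each). Dcn made up most of the sum, which averaged 454 FPKM in KO and 644 FPKM in WT. By gene, 1 of the 10 had a higher and 9 a lower mean in KO, with a median log2 difference of -0.22. Gli1 stood at 112% of WT, F3, Foxl1, Wnt5a and Bmp5 at 86.9% to 92.5%, and Bmp7 at 83.0%. Cd34 and Pi16 stood at 69.9% and 69.3%, near Dcn and Lum. The part of these cells in the values of Kit and Pdgfra was not tested.

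Nerves, vessels and epithelium were followed in the same way. The 8 enteric neuron markers summed to 46.8, 68.9 and 60.7 FPKM in the KO libraries, against 86.4, 56.6 and 71.1 FPKM in the WT libraries, led by the neuropeptide gene Vip and by Uchl1. The 5 endothelial markers, with Pecam1 and Cdh5 highest, summed to 29.7 to 38.9 FPKM in KO and 41.5 to 56.9 FPKM in WT, without overlap. The 5 epithelial markers, led by Epcam and Krt20, summed to 1474, 1153 and 1386 FPKM in the KO libraries, against 1114, 1516 and 1242 FPKM in the WT libraries, at 104% of WT beside 148% for Ano1. By gene, 4 of the 5 had higher means in KO and 1, Krt20, a lower mean, at 92.2% of WT. Like Ano1, this sum was lowest of KO in KO library 2 and highest of WT in WT library 2. Its highest KO library and lowest WT library differed from those of Ano1. The part of the epithelium in the values of Ano1 was not tested. No marker of these 9 lists was called in limma (Benjamini-Hochberg, over all genes), where 0.288% of all tested genes were.

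The genes that Ano1 and its neighbours act with showed no call, where 0.288% of all tested genes were called. At that share an absence of calls is not a result about these genes. Over 9 lists holding 64 genes, 55 were tested, none was called in limma over all genes (lowest Benjamini-Hochberg adjusted p = 0.213), and 10 had an unadjusted p under 0.05 (18.2%), against 16.2% of all tested genes. KO means were higher for 13 and lower for 42 of the 55, with a median log2 difference of -0.16. Over all tested genes 57.4% had lower means, with a median of -0.03.

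Among other genes of interstitial cells of Cajal, 9 were tested, 1 with a higher and 8 with a lower mean in KO (median log2 difference -0.11). This median was -0.24 with a pseudocount of 0.1, -0.03 under quantile normalization, -0.22 without WT library 2 and -0.07 without WT library 1. Thbs4, a thrombospondin, measured 96.8 ± 10.6 FPKM in KO and 94.3 ± 15.4 FPKM in WT, and Slc12a2, the cotransporter that loads cells with chloride, 35.6 ± 4.70 FPKM in KO and 37.0 ± 3.20 FPKM in WT (SD, n = 3 each). The ligands gave 1 higher and 4 lower means of 5 (median -0.07). Pdgfa, a ligand of Pdgfra, measured 49.0 ± 5.99 FPKM in KO and 47.8 ± 3.99 FPKM in WT, and Kitl, the ligand of Kit, 19.3 ± 1.18 FPKM in KO and 19.7 ± 0.868 FPKM in WT (SD, n = 3 each).

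Of 10 tested genes of the nitric oxide and cGMP pathway 1 had a higher and 9 a lower mean in KO (median log2 difference -0.16). This median was -0.09 without KO library 1, -0.26 without KO library 2, -0.29 without WT library 2 and -0.06 with smooth muscle as a covariate. Vasp, a cytoskeletal substrate of the cGMP kinase, measured 165 ± 19.0 FPKM in KO and 171 ± 18.0 FPKM in WT, and Pde9a, a phosphodiesterase that breaks down cGMP, 63.3 ± 5.79 FPKM in KO and 57.4 ± 7.35 FPKM in WT (SD, n = 3 each). Of 12 calcium handling genes 4 had higher and 8 lower means (median -0.10). Atp2a2, the calcium pump of the endoplasmic reticulum, measured 68.6 ± 4.40 FPKM in KO and 76.9 ± 4.30 FPKM in WT, and Stim1, its calcium sensor, 49.4 ± 3.81 FPKM in KO and 50.1 ± 1.08 FPKM in WT (SD, n = 3 each).

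The relatives of the receptors and channels were not called either, where 0.288% of all tested genes were. Of 4 tested calcium-activated potassium channel genes 1 had a higher and 3 a lower mean in KO (median log2 difference -0.15); Kcnn4, the epithelial relative of Kcnn3, measured 23.4 ± 3.50 FPKM in KO and 21.5 ± 3.23 FPKM in WT, and Kcnmb1, the smooth muscle subunit of the large-conductance channel, 6.96 ± 0.985 FPKM in KO and 8.12 ± 1.58 FPKM in WT (SD, n = 3 each). Kcnn1 has no row of its own, being joined to another gene. Of 6 tested P2Y receptors 3 had higher and 3 lower means (median -0.09), with P2ry6 at 16.6 ± 2.40 FPKM in KO and 16.2 ± 3.76 FPKM in WT and P2ry14 at 11.7 ± 1.75 FPKM in KO and 15.9 ± 3.17 FPKM in WT (SD, n = 3 each). Etv4, a relative of Etv1, measured 6.25 ± 1.68 FPKM in KO and 6.97 ± 0.654 FPKM in WT, and Etv5, the other, 2.34 ± 0.170 FPKM in KO and 3.30 ± 0.398 FPKM in WT (median of both -0.26). Csf1r, a macrophage relative of Kit and Pdgfra, measured 16.2 ± 3.67 FPKM in KO and 21.9 ± 0.885 FPKM in WT, and Pdgfrb, the receptor of pericytes, 8.35 ± 0.866 FPKM in KO and 9.73 ± 0.601 FPKM in WT (SD, n = 3 each; median of both -0.32).

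The 5 genes whose pattern over the 6 libraries was most like that of Ano1 included no member and no gene of the lists. Ano1 was selected on its difference between KO and WT, so this distance favours genes with a similar rise in KO. Etv1, Kcnn3, Prkg1 and part of the list for interstitial cells of Cajal averaged under 5 FPKM and could not appear. Nothing about cell type is read from the 5 genes. Among 8583 named genes averaging 5 FPKM or more, the smallest root mean square differences of centred log2(FPKM + 1) from Ano1 belonged to the histone genes Hist1h2bg (0.06) and Hist1h2bh (0.07), the iron exporter gene Slc40a1 (0.07), the galectin gene Lgals12 (0.08) and D14Ertd449e (0.08), against a median of 0.30 over these genes. Slc40a1, at a level like that of Ano1, measured 78.5, 79.0 and 79.2 FPKM in the KO libraries, against 52.9, 62.3 and 57.8 FPKM in the WT libraries. Hist1h2bg, which has near-identical copies in the genome, measured 8.85 ± 0.771 FPKM in KO and 5.76 ± 0.520 FPKM in WT (SD, n = 3 each).

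The authors' own comparison does not carry a result for Ano1. The authors' deposited table lists it at p = 1 with no change on the log2 scale (0), beside group values of 74.4 FPKM in KO and 53.2 FPKM in WT, whose ratio is 1.40. The KO group value lies below all 3 KO libraries and is 0.949 of their mean, where the median over tested genes is 0.995; in 4.22% of tested genes the KO group value lies below all KO libraries. Of the tested genes, 1.95% carry the same 0 and the same p. For the other 6 genes the authors' deposited table gives log2 fold changes of 0.06 for Kit, -0.35 for Etv1, -0.35 for Pdgfra, -0.17 for P2ry1, -0.52 for Kcnn3 and -0.32 for Prkg1, with q-values of 0.937 for Kcnn3 and 1.000 for each of the rest.

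**Figure D5:**
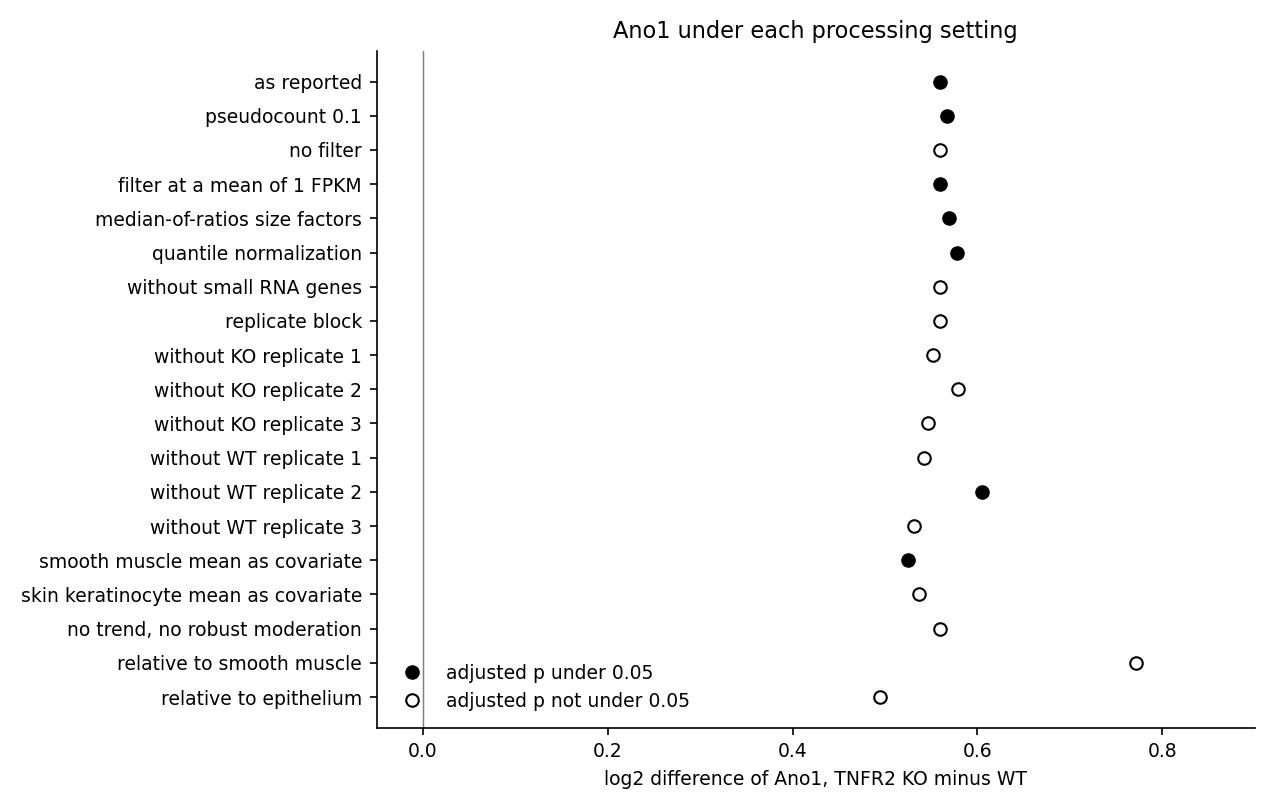
Log2 difference of Ano1, TNFR2 KO minus WT (horizontal axis), as reported and under 18 alternative settings; filled points have a Benjamini-Hochberg adjusted p under 0.05 in limma. The difference lies between 0.49 and 0.77 in the alternatives, of which 6 are filled.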

How the data were processed

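Per the file headers, the deposited table holds the authors' FPKM per gene and library, their group FPKM values and, for KO over WT, their log2 fold change with its p-value and adjusted p-value. The submitters' design text says that the authors aligned reads with Tophat2 and Bowtie2, assembled with Cufflinks and tested with Cuffdiff 2; per the submitters' processing notes the build was mm10. Tool releases, annotation, strandedness and how libraries were scaled to one another: not given in the sources used here. Tests used limma 3.58.1 on log2(FPKM + 1) (R 4.3.3; intensity trend, robust moderation, no covariates) over 14564 named genes averaging 0.5 FPKM or more in the 6 libraries, with Benjamini-Hochberg adjustment; this scale understates changes of low genes. Rows without a gene name (6.13% of rows, 17.7% of summed FPKM) were left out. Starts in the table count from 0 and are given here from 1. A further marker list is not reported here. The members and lists were chosen with earlier results of these data known. Named genes were all members, the most abundant 2 of each list when none was called, and the 5 most like Ano1; Etv5 and others in the closing section were chosen after their values were seen. Python 3.11.15, pandas 2.3.3 and matplotlib 3.10.9 were used.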

Additional observations from a re-analysis of the deposited data

How the results depend on the processing

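The log2 difference of Ano1 stayed positive under all 18 alternatives; it was 0.77 relative to smooth muscle (adjusted p = 0.697, limma) and 0.49 relative to epithelium, an alternative added after seeing the data (adjusted p = 0.828, limma), and 0.53 to 0.61 when single libraries were left out. Its limma, Benjamini-Hochberg adjusted p, 0.0361 as reported, was 0.0115 to 0.0458 in 6 alternatives and 0.0507 without small RNA genes, 0.0533 without trend and robust moderation, 0.0850 without a filter, 0.129 with the skin covariate, and over 0.05 in 5 of 6 fits without a single library (0.0736 to 0.240; 0.0367 without WT library 2). The count of called genes, 42 as reported, was 27 without a filter, 22 without small RNA genes, 27 with the skin covariate and 21 to 74 when single libraries were left out (21 without KO library 3, 27 without WT library 1, 74 without WT library 2, 22 without WT library 3). Relative to smooth muscle it was 153, where the median of all genes shifted to 0.18. With the replicate block 24 were called and the adjusted p of Ano1 was 0.443 at the same difference; same-numbered libraries deviated together with correlations of -0.37, -0.34 and 0.21, so they share a number and are not shown to be pairs. No gene of the 9 lists was called under the alternatives run for them. Etv1 (-0.34 to -0.03), Pdgfra (-0.40 to -0.12), Kcnn3 (-0.49 to -0.15) and Prkg1 (-0.39 to -0.03) kept their sign in all 18 alternatives; Kit turned to -0.01 relative to epithelium and P2ry1 to 0.08 relative to smooth muscle. List medians ranged over the alternatives from -0.24 to -0.03 for genes of interstitial cells of Cajal, -0.10 to 0.0014 for ligands (above 0 under quantile normalization), -0.29 to -0.06 for nitric oxide and cGMP, -0.17 to -0.02 for calcium handling, -0.11 to -0.01 for anoctamins, -0.26 to -0.03 for potassium channels, -0.22 to -0.0013 for P2Y receptors, -0.34 to -0.16 for relatives of Etv1 and -0.41 to -0.19 for relatives of Kit. The summed smooth muscle difference, -1112 FPKM (KO minus WT), was -2107 to -357 FPKM without single libraries (-2107 without WT library 2, -451 without KO library 1, -357 without WT library 1). Counting error could not be computed from FPKM.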

Other observations

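Some genes of the lists, chosen after their values were seen, had KO libraries that did not overlap the WT libraries while missing the adjusted threshold. Prkcq, a protein kinase C of interstitial cells of Cajal that T cells and skeletal muscle also express, measured 0.645, 1.22 and 0.963 FPKM in the KO libraries, against 2.82, 1.54 and 1.97 FPKM in the WT libraries (limma, Benjamini-Hochberg adjusted p = 0.218). Ano5, an anoctamin of skeletal muscle, measured 0.227, 0.538 and 0.358 FPKM in the KO libraries, against 1.83, 0.708 and 0.878 FPKM in the WT libraries (adjusted p = 0.259, limma). The skeletal muscle markers summed to 113 to 1424 FPKM in KO and 1977 to 6376 FPKM in WT beside these, and their part in the result was not tested.

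Cacna1g, a T-type calcium channel, measured 1.11, 1.56 and 1.21 FPKM in the KO libraries, against 2.07, 1.87 and 2.03 FPKM in the WT libraries (limma, Benjamini-Hochberg adjusted p = 0.213). Pdgfb, the ligand of Pdgfrb on pericytes, measured 3.20, 3.93 and 3.36 FPKM in the KO libraries, against 5.47, 4.16 and 4.92 FPKM in the WT libraries (adjusted p = 0.234, limma). Ano7 was the only tested anoctamin relative with every KO library above every WT library, at 2.66, 2.60 and 2.08 FPKM in KO and 1.80, 1.62 and 1.82 FPKM in WT (adjusted p = 0.242, limma). Of the 55 tested genes of the lists, 8 lay lower in every KO library and 1 higher, against 12.5% and 9.3% of all tested genes.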
